A study of Saccharomyces cerevisiae with 4 samples.

Results

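The data compared here are the 2 small RNA libraries of budding yeast (Saccharomyces cerevisiae) cells that lack XRN1, out of 4 libraries in the series. One came from cells that lack XRN1 and also carry DCR1 and AGO1 (xrn1 RNAi, strain YAM1982), and the other from cells that lack XRN1 alone (xrn1, strain YAM2271). Both carry the xrn1 deletion. The libraries from cells with XRN1, one with DCR1 and AGO1 (RNAi, strain YAM1725) and one wild type (WT, strain YAM1730), are used only to show where the difference depends on XRN1. All 5798 listed genes entered the comparison. The labels give no source species for DCR1 and AGO1, no promoter and no culture conditions, and each genotype is 1 strain with 1 library. With no replicates, a difference between libraries cannot be set against biological spread. No p-values across genes are given for xrn1 RNAi against xrn1, and every interval covers the counting error of reads alone.

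Budding yeast has lost RNA interference. The Dicer enzyme made from DCR1 cleaves double-stranded RNA into short duplexes, and the Argonaute protein made from AGO1 loads one strand of each and uses it to recognise target RNA. XRN1 encodes the main cytoplasmic 5′ to 3′ exoribonuclease, which degrades decapped mRNAs and many antisense and other non-coding transcripts. The series title states the purpose as mapping double-stranded RNA, which can form where transcripts of opposite strands pair.

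Values are those of the deposited table. Each read adds 0.0762 to a gene's value in xrn1 RNAi, 0.330 in xrn1, 0.318 in RNAi and 1 in WT. They are signal per gene and not per length unless stated. The reads over genes numbered 7686801 in xrn1 RNAi and 2825322 in xrn1, and 1801407 in RNAi and 627607 in WT. The deleted gene itself, XRN1 (YGL173C), had 0 reads in xrn1 RNAi, which allows up to 3 reads, and 3 reads in xrn1, a value of 0.991. In cells with XRN1 its value was 12.4 in RNAi and 148 in WT. Strand, read length and the position of reads within a gene are not in the table used here, so products of Dicer cannot be separated from other RNA fragments, and sense and antisense reads cannot be told apart.

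One property of the libraries bears on every fold below. Among the 2220 nuclear genes with a value of 31.8 or more in xrn1 RNAi, 135 were 8-fold or more above xrn1, but only 5 reached 16-fold. These were IME4, SMK1, AQY1, LCL1 and MBR1, which had between 4 and 32 reads in xrn1. Among the 1767 nuclear genes at that value in RNAi, 235 were 8-fold or more above WT, 90 reached 16-fold, and the highest ratio was 93.7. The 100 genes with the most signal in xrn1 RNAi had a median ratio to xrn1 of 8.15 (quartiles 6.56 and 10.3, highest 13.6). The 100 genes with the most signal in RNAi had a median ratio to WT of 14.9 (quartiles 9.32 and 22.6, highest 62.9). Across the 500 nuclear genes of highest value in xrn1 RNAi, log2 values in xrn1 correlated with those in xrn1 RNAi at r = 0.49 (Spearman's rho 0.42), with those in RNAi at 0.30 (rho 0.30) and with those in WT at 0.52 (rho 0.51). These are descriptions across genes of single libraries, which differ in depth. Carry-over of reads from one library to another was not tested.

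The small RNA of nuclear genes was concentrated in fewer genes in xrn1 RNAi than in xrn1. In xrn1 RNAi 203 nuclear genes held 50% of the nuclear signal, against 918 genes in xrn1. The numbers were 137 in RNAi and 855 in WT, so a like contrast was seen with XRN1 present. The 10 genes of highest value held 11.2% in xrn1 RNAi and 4.08% in xrn1, and the top 100 held 37.6% and 17.3% in the same libraries. The median nuclear gene had a value of 19.2 in xrn1 RNAi and 70.7 in xrn1. Of 5445 genes counted (value of 3.18 or more in at least 1 of both libraries), 835 (15.3%) were 2-fold or more higher in xrn1 RNAi and 3161 (58.1%) were 2-fold or more lower. With XRN1 present the shares were 15.2% higher and 60.3% lower in RNAi over WT. These are differences of log2(value + 3.18), and "rose" and "fell" below mean past 2-fold on that scale. The median nuclear gene fell by 1.45. With size factors, which set the typical gene of each library to a like level, the median moved up by 1.43, and 1770 genes (32.8%) were then higher and 1675 (31.0%) lower. The counts thus depend on the scale, and gene groups are set below against the nuclear background of 15.4% higher and 57.9% lower.

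**Figure D1:**
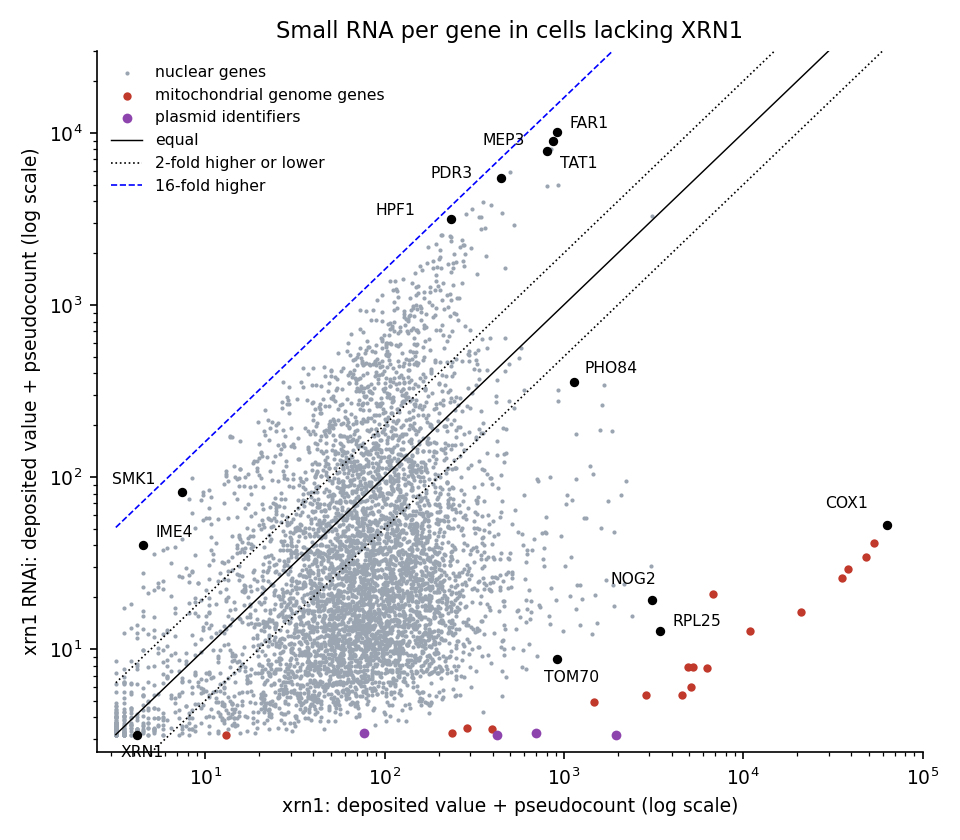
Deposited value plus 3.18 of every listed gene in xrn1 RNAi (vertical) against xrn1 (horizontal), both axes on log scales. Grey points are nuclear genes, red points mitochondrial genome genes and purple points plasmid identifiers. FAR1, at 10138 in xrn1 RNAi, is the highest gene, the upper edge of the cloud runs below the 16-fold line, and the mitochondrial genes lie far to the lower right.

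The 15 largest gains included cell wall, peroxisome, transport and amino acid genes. HPF1 (YOL155C), which encodes a cell wall mannoprotein, had a value of 3131 in xrn1 RNAi and 231 in xrn1, a 13.6-fold difference (interval 12.6 to 14.6). In cells with XRN1 it had 1906 in RNAi and 39 in WT. CTA1, the peroxisomal catalase gene, had 935 in xrn1 RNAi and 69.7 in xrn1 (13.4-fold, 11.7 to 15.4), and was likewise high in RNAi (573) and low in WT (47). For AIM33 and SFK1 the difference was larger without XRN1 than with it. AIM33 (YML087C) had 1377 in xrn1 RNAi and 104 in xrn1 (13.2-fold, 11.8 to 14.8), while it had 50.8 in RNAi and 76 in WT. SFK1, which encodes a plasma membrane protein linked to phosphoinositide signalling, had 2160.1 in xrn1 RNAi and 171.5 in xrn1, against 197 in RNAi and 48 in WT. The log2 difference of SFK1 was 3.63 without XRN1, against 1.96 with it. No replicates exist to test either difference between backgrounds.

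TRP1 and PDR3 were among both the 15 highest differences and the 10 highest values. Per kilobase of coding length in xrn1 RNAi, TRP1, a tryptophan synthesis gene, led with 8077, followed by the ammonium permease gene MEP3 with 6106 and MCH5, a riboflavin transporter gene, with 5145. The alcohol dehydrogenase gene ADH1 (4716 per kilobase), TAT1 (4207), RPB4 (4203) and FAR1 (4067) came next. RPB4 encodes a subunit of RNA polymerase II that is not needed for its catalytic core. Its value was 2799 in xrn1 RNAi and 359.8 in xrn1 (7.78-fold, 7.32 to 8.27). Of the 12 RNA polymerase II genes RPB4 and RPB7 rose and 8 fell, a lower share of 66.7% that is near the nuclear background. With size factors 3 rose and 5 fell.

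Genes that take up nutrients at the plasma membrane had more of their members higher than the nuclear background. Among nucleobase, vitamin and choline permeases 10 of 15 rose and 4 fell, with a median log2 difference of 2.53. FCY2, the purine-cytosine permease gene, had 4902 in xrn1 RNAi and 803 in xrn1, and its paralogue FCY21 had 1673 in xrn1 RNAi and 154 in xrn1. The choline transporter gene HNM1 had 2132 in xrn1 RNAi and 300.01 in xrn1, and the thiamine transporter gene THI7 had 261 and 26.1 in the same libraries. On the low side was VHT1, the biotin transporter gene, with 6.56 in xrn1 RNAi and 103 in xrn1. THI7, THI72 and NRT1 are close relatives, as are FCY2, FCY21 and FCY22, so reads may be shared among their copies.

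Of the 3 ammonium permease genes, MEP3 and MEP1 rose. MEP3 had 8976 in xrn1 RNAi and 872 in xrn1 (10.3-fold, 9.91 to 10.7), and MEP1 had 3965 in xrn1 RNAi and 349 in xrn1 (11.4-fold, 10.7 to 12.1). MEP2, the high-affinity permease that also signals nitrogen starvation, had 72.0 in xrn1 RNAi and 128 in xrn1. MEP3 and MEP1 were also high in RNAi (6130 and 3125) against WT (210.0 and 126). Of 19 amino acid permease genes 6 rose and 4 fell, and with size factors 14 rose and 2 fell. GAP1, the general permease, fell to 44.4 in xrn1 RNAi, against 555 in xrn1, while DIP5, for acidic amino acids, had 856 in xrn1 RNAi and 229 in xrn1.

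A list of mainly sugar uptake genes had gains without a single loss past 2-fold. This hexose transporter and sensor list also holds MAL11, MAL31 and STL1, a glycerol transporter gene. Of its 12 counted genes 7 rose, MAL31 and STL1 among them, and 0 fell, with a median log2 difference of 1.23. A further 9 of the 21 listed genes were too low in both libraries to be counted. In RNAi over WT 2 of 14 counted genes were higher and 5 lower. RGT2, a glucose sensor gene, had 1637 in xrn1 RNAi and 183 in xrn1 (8.94-fold, 8.22 to 9.75). HXT2, a glucose transporter gene, had 1335 in xrn1 RNAi and 266 in xrn1, but only 180.4 in RNAi and 284 in WT. HXT genes have near-identical copies, so single values are uncertain. Galactose genes also rose, 5 of 7 counted with 0 lower. GAL1, the galactokinase gene, had 426 in xrn1 RNAi and 36.7 in xrn1.

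Of 27 metal, phosphate and sulfate transporter genes 10 rose and 11 fell (40.7%, below the nuclear background), and with size factors 14 rose and 4 fell. FET4, a low-affinity iron transporter gene, had 3810.1 in xrn1 RNAi and 389 in xrn1 (9.79-fold, 9.24 to 10.4). PMA1, the plasma membrane proton pump gene, was abundant in both libraries, at 3272 in xrn1 RNAi and 3115 in xrn1, a ratio of 1.05. Of 23 multidrug resistance genes 9 rose and 6 fell, and with size factors 14 rose and 2 fell. PDR3, a transcription factor gene of drug resistance, had 5450 in xrn1 RNAi and 444 in xrn1. PDR5, the main drug efflux pump and a target of that factor, had 54.1 in xrn1 RNAi and 1287 in xrn1, a 23.8-fold lower value (21.9 to 25.8).

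Of 29 cell wall mannoprotein genes 10 rose and 5 fell, and 4 of the 29 were counted only through xrn1 RNAi and 1 only through xrn1. FLO5, a flocculin gene, had 167 in xrn1 RNAi and 10.6 in xrn1, with reads that its paralogues FLO1 and FLO9 may share. Among 25 glucanase and chitin genes 7 rose and 12 fell (48.0%), and with size factors 11 of 24 rose and 5 fell. DSE2 and DSE4, daughter-cell genes of septum breakdown, both rose, and DSE2 had 1099 in xrn1 RNAi and 135 in xrn1. GAS1, which encodes the main glucan-remodelling enzyme, fell to 42.4 in xrn1 RNAi, against 963 in xrn1 (22.7-fold, 20.7 to 24.9).

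Meiosis and sporulation genes, mostly silent in growing cells, gained in 18 of 38 counted genes and lost in 7. The count of gains needs care, since 6 of the 38 were counted only through xrn1 RNAi and had to be higher there, and 9 only through xrn1. SPO22, which acts in meiotic crossover formation, had 597 in xrn1 RNAi and 59.5 in xrn1 (10.0-fold, 8.66 to 11.7). SPR1, a sporulation glucanase gene, had 331 in xrn1 RNAi and 26.1 in xrn1. SMK1, a mitogen-activated kinase gene of spore wall assembly, had 78.0 in xrn1 RNAi and 4.30 in xrn1 from 13 reads. It was higher still in RNAi, at 826, against 21 in WT. The list as a whole did not share this gain with XRN1 present. In RNAi over WT 6 of 47 counted genes were higher and 22 lower, where 15.2% and 60.3% of all genes were.

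**Figure D2:**
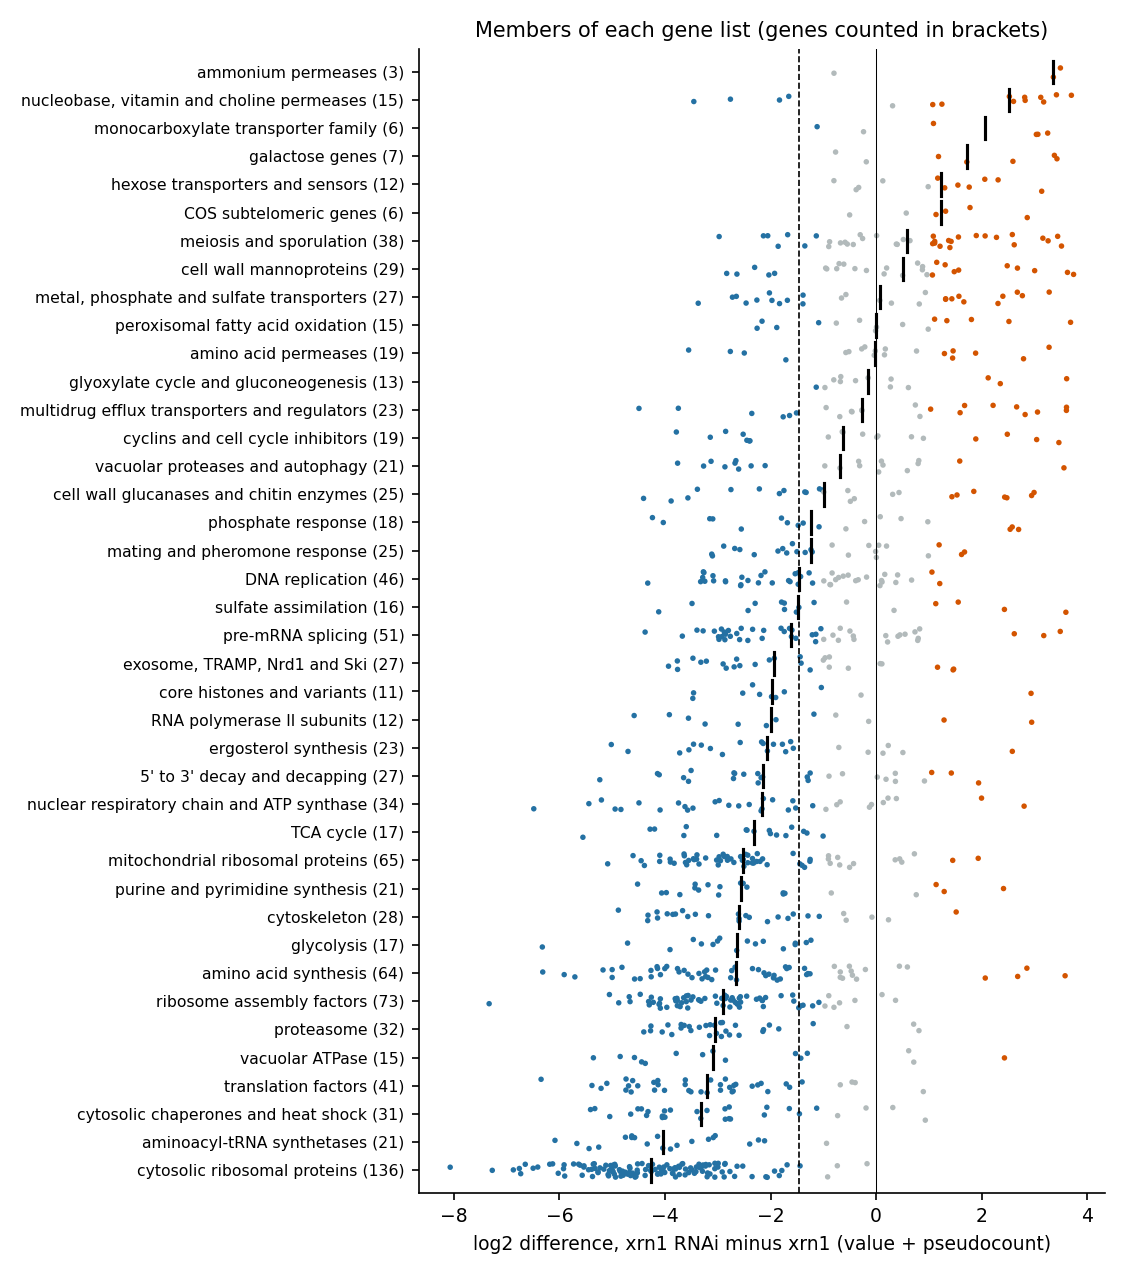
log2 difference of values plus 3.18, xrn1 RNAi minus xrn1, for each counted member of 40 nuclear gene lists, ordered by median. Orange points rose past 2-fold, blue points fell past 2-fold and grey points did neither. Black bars are list medians and the dashed line is the nuclear median of -1.45. Permeases, galactose and meiosis genes lie at the top and ribosomal protein genes at the bottom.

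At the other end were genes of protein synthesis and central metabolism. The share that fell depends on the value in xrn1, which itself enters the difference. Of the 1083 counted nuclear genes of highest value in xrn1 74.3% fell and 10.9% rose. Of the 1094 of lowest value 38.2% fell and 23.6% rose. The lists were not matched for that value. The nuclear background of 57.9% lower may thus be too low for lists of genes abundant in xrn1. Of 136 cytosolic ribosomal protein genes 133 fell and 0 rose (median -4.27), and with size factors 125 fell and 1 rose. Of the 136, 35 were counted only through xrn1, so they could only be lower in xrn1 RNAi. RPL25, a large-subunit protein gene, had 9.60 in xrn1 RNAi and 3431 in xrn1, 357-fold lower (interval 300 to 429). NOG2, a GTPase gene of ribosome export that hosts a small nucleolar RNA in its intron, had 16.01 in xrn1 RNAi and 3088 in xrn1 (193-fold lower, 168 to 222). Of 73 ribosome assembly genes 66 fell, of 41 translation factor genes 37, and of 21 aminoacyl-tRNA synthetase genes 20, with 0 higher in each group. With size factors 51 of 73, 31 of 40 and 17 of 21 fell, and 3, 3 and 0 rose. CDC33, the cap-binding translation factor, was down to 15 reads in xrn1 RNAi, a value of 1.14, against 349 in xrn1.

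All 17 glycolysis genes and all 17 citric acid cycle genes fell. With size factors 9 and 6 of them fell and 0 rose. With XRN1 present the 2 lists differed. In RNAi over WT 6 of 17 glycolysis genes were lower and 3 higher, where 60.3% of all genes were lower. Of 17 citric acid cycle genes 15 were lower and 0 higher. FBA1, the aldolase gene, had 20.4 in xrn1 RNAi and 1882 in xrn1. The proteasome (29 of 32 lower), chaperone and heat shock genes (27 of 31) and the cytoskeleton (23 of 28, with CAP2 as the single gain) also had lower members in the main. With size factors 24, 22 and 15 of them fell. The nuclear genes of the respiratory chain fell in 24 of 34 cases (70.6%). That share lies between the nuclear background of 57.9% and the 74.3% of the genes of highest value in xrn1. With size factors 15 of 33 fell and 7 rose. ATP2, a subunit of ATP synthase, had 10.5 in xrn1 RNAi and 1225 in xrn1. INH1, which encodes the inhibitor of that enzyme, had 790.4 in xrn1 RNAi and 110.4 in xrn1, but only 33.7 in RNAi and 5 in WT. COX5B rose also. Gains in other lists were those of TRP1, ARG1, GDH3 and HIS3 among 64 amino acid synthesis genes (49 lower), HMG2 among 23 ergosterol genes (17 lower), and HTZ1, the variant histone H2A.Z, among 11 histone genes (9 lower). With size factors 34 of 64 amino acid synthesis genes, 9 of 23 ergosterol genes and 3 of 11 histone genes fell, and 11, 5 and 2 of them rose. HTZ1 had 555 in xrn1 RNAi and 69.7 in xrn1 (7.96-fold, 6.94 to 9.17).

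All 19 listed genes of the mitochondrial genome fell, 8 of which were counted only through xrn1. They held 0.0394% of the reads in xrn1 RNAi (Clopper-Pearson interval 0.0380 to 0.0408%) and 33.1% in xrn1 (33.07 to 33.18%). A like contrast was seen with XRN1 present, with 0.361% in RNAi and 26.7% in WT. COX1, the cytochrome oxidase subunit 1 gene, had 49.2 in xrn1 RNAi and 63612 in xrn1, 1292-fold lower (1196 to 1398), a larger ratio than that of RPL25. Some of these genes are nested in others, such as the intron frames of COX1 and COB, and without nested features the shares were 0.0154% in xrn1 RNAi and 13.4% in xrn1. The 4 identifiers that the naming scheme gives to the 2-micron plasmid had 2 reads in all in xrn1 RNAi and 9519 reads in xrn1. In cells with XRN1 they had 1 read in RNAi and 8779 reads in WT. Whether the strains with DCR1 and AGO1 have lost the plasmid or mitochondrial DNA cannot be told from these files.

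Double-stranded RNA can form where genes converge and their transcripts run into each other, so genes were also grouped by their neighbours in the RefSeq annotation of assembly R64. Listed genes that overlap on opposite strands formed 23 pairs. In the planned class, overlaps of 100 bases or more, 5 of 18 counted genes rose (27.8%) and 7 fell (38.9%), with a median of -0.17. The nuclear background was 15.4% higher and 57.9% lower. The split by arrangement and the class of shorter overlaps were not planned. In 7 of the 23 pairs the genes converge and share under 100 bases, and 5 of those pairs rose in both members. Of the 14 members 11 rose, 1 fell and 2 did neither. Of the 6 convergent pairs that share 100 bases or more, 0 rose in both members. Of their 12 members 3 were too low to be counted, and of the other 9, 1 rose, 5 fell and 3 did neither. The letters below, shown since these junctions mark where the paired genes end within each other, are the plus strand of R64. Capitals mark the stop codon of the plus-strand gene and the reverse complement of that of the minus-strand gene, which overlap in the shortest junctions.

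SMD1 and PRP38, chrVII:636135-636164: ccaagaagaggtCTATGAttcgctgctggt
YML096W and RAD10, chrXIII:81469-81498: aataggaattgtTCATAAattcaaatattc
VPS75 and CWC25, chrXIV:186333-186362: agaaaaggaaagtTTAGtagtctaggtccg
CTF19 and IRC15, chrXVI:518733-518762: cCTAttcccggacatgtacgccaggTGAtg
VPS38 and DCR2, chrXII:847388-847422: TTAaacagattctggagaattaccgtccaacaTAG
NKP2 and TAD3, chrXII:765253-765282: tattagaggaaaaCTAGcagcagacatccc
ATG29 and SET6, chrXVI:237953-237982: gcgCTAatggacagattgcaattcTGAttt

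SMD1 (chromosome VII, plus strand) encodes a core protein of the splicing complex, and PRP38 (minus strand) a factor of spliceosome activation. They share 6 bases. SMD1 had 1414 in xrn1 RNAi and 123 in xrn1 (11.5-fold, 10.4 to 12.8), and PRP38 had 812 in xrn1 RNAi and 86.9 in xrn1 (9.34-fold, 8.27 to 10.6). In cells with XRN1 both were far lower, SMD1 at 67.0 in RNAi and 14 in WT, and PRP38 at 22.9 in RNAi and 13 in WT. Of 51 splicing genes 3 rose, namely SMD1, PRP38 and PRP28, and 32 fell (62.7%, near the nuclear background). With size factors 14 rose and 19 fell. PRP28 also converges with a gene that rose, AMD2.

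YML096W and RAD10, a DNA repair nuclease gene, also share 6 bases. YML096W had 917 in xrn1 RNAi and 125 in xrn1, and RAD10 had 403 in xrn1 RNAi and 60.8 in xrn1, while RAD10 had 27.6 in RNAi and 14 in WT. VPS75, a histone chaperone gene, and CWC25, a splicing factor gene, share 4 bases, and had 1897 and 470.1 in xrn1 RNAi, against 202 and 72.0 in xrn1. CTF19, a kinetochore gene, and IRC15, a microtubule-associated gene, share 27 bases and had 698 and 1142 in xrn1 RNAi, against 130 and 94.2 in xrn1. IRC15 was 12.1-fold higher (10.8 to 13.7). This pair was high with XRN1 as well, CTF19 at 523 in RNAi and 48 in WT. The remaining pair that rose together, VPS38 and DCR2, differed less, at 3.11-fold (2.66 to 3.67) and 3.49-fold (3.06 to 3.99). TAD3, a tRNA deaminase gene, rose to 1969.7 in xrn1 RNAi, against 279 in xrn1, but its partner NKP2 had 24.6 in xrn1 RNAi and 15.2 in xrn1. ATG29 and SET6 were low in both libraries.

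**Figure D3:**
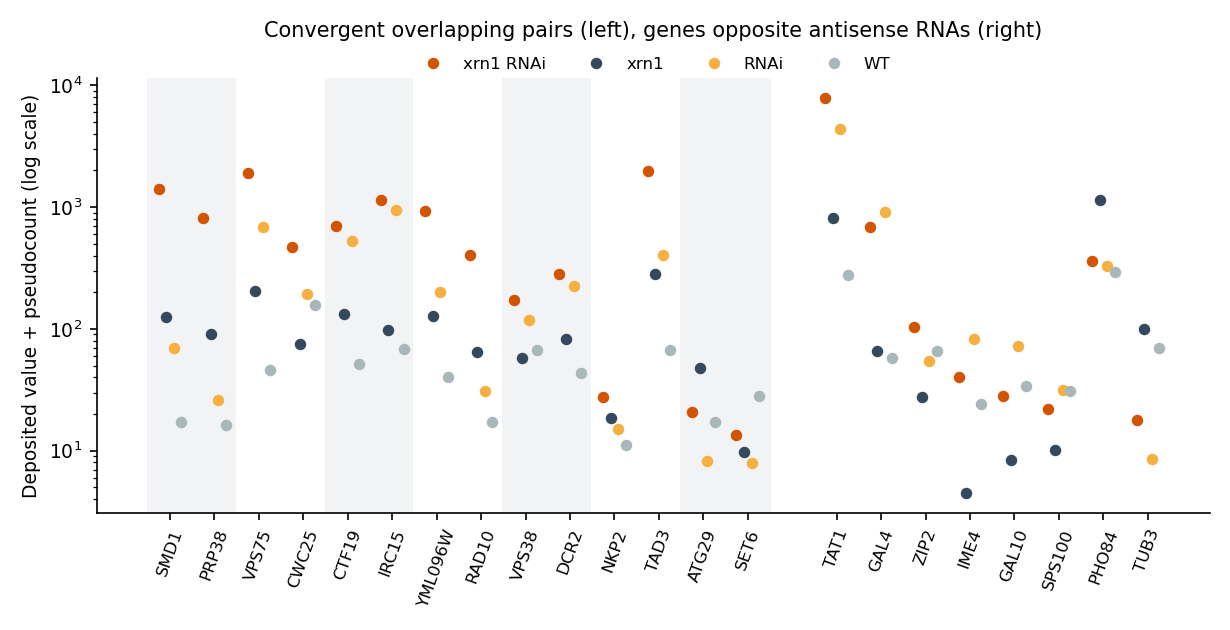
Deposited value plus 3.18 (log scale) in each library for the 7 convergent pairs that share under 100 bases (left, pairs shaded in turn) and for 8 genes opposite an annotated antisense RNA (right). For SMD1, PRP38 and RAD10 the xrn1 RNAi point lies well above the other 3, and among the genes at right only PHO84 and TUB3 lie lower in xrn1 RNAi than in xrn1.

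Convergent genes that do not overlap were examined next. Counted nuclear genes with a convergent neighbour ending within 100 bases, overlaps included, numbered 369. Of these 21.1% rose, with a median log2 difference of -0.57, against 15.0% and -1.53 for all other nuclear genes. By distance the share that rose was 51.9% for 27 overlapping genes, 28.1% at 0 to 50 bases, 16.5% for gaps over 50 and up to 100, 12.7% up to 200 and 10.1% up to 300. It was 10.6% up to 500, 11.4% up to 1000 and 20.7% of 135 genes beyond that, so it did not fall steadily with distance. For genes followed by a gene on the same strand, the share that rose was 22.2% of 9 overlapping genes, 16.7% of 12 genes at 0 to 50 bases, 16.7% of 18 up to 100, 16.6% of 151 up to 200, 13.6% of 580 up to 300, 17.3% of 920 up to 500, 20.1% of 601 up to 1000 and 25% of 296 beyond that. The closest of these classes hold few genes, and the difference between the arrangements was not tested. Of 1368 convergent pairs with both genes counted, 52 (3.80%) rose in both members and 252 in 1 member. Of 179 pairs at most 100 bases apart, 20 (11.2%) rose in both and 38 in 1. Of 758 pairs over 200 bases apart, 16 (2.11%) rose in both and 134 in 1. This grouping was chosen after the data had been seen, and close pairs can share reads at their ends.

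**Figure D4:**
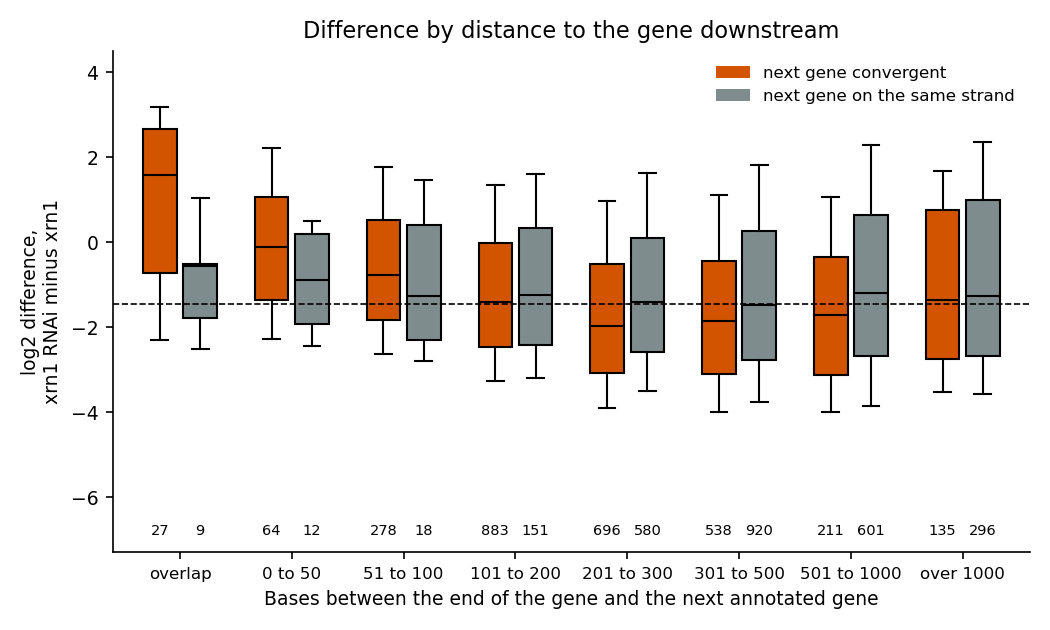
log2 difference, xrn1 RNAi minus xrn1, by distance to the next annotated gene, for genes that face a convergent neighbour (orange) or are followed by a gene on the same strand (grey). Boxes span the quartiles, whiskers the 10th to 90th percentile, and the number of genes stands below each box. The orange median is 1.58 for overlapping genes and -1.96 for gaps over 200 and up to 300 bases, below the dashed nuclear median of -1.45.

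CHL4, a kinetochore gene, and RMD5, a ubiquitin ligase gene of glucose-induced degradation, lie 67 bases apart and had nearly equal values. CHL4 had 1196 in xrn1 RNAi and 114 in xrn1, and RMD5 had 1239 in xrn1 RNAi and 112 in xrn1. SNM1, an RNase MRP subunit gene, and PEX29, a peroxisome gene, lie 38 bases apart, and had 213 and 2339 in xrn1 RNAi, against 48.6 and 232 in xrn1. These pairs were picked for values seen and serve as examples.

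At some genes the annotation itself lists an RNA transcribed from the opposite strand. RefSeq annotates 7 such RNAs that cover 100 bases or more of 8 listed genes, and 6 of the 8 rose (75%, against 15.3% of all genes) and 2 fell. The other strand's reads cannot be separated from those of the gene. This grouping, too, was chosen after the data had been seen. TAT1, an amino acid permease gene opposite TBRT, had 7825 in xrn1 RNAi and 804 in xrn1 (9.74-fold, 9.35 to 10.1). GAL4, the activator of galactose genes, had 676 in xrn1 RNAi and 62.1 in xrn1 (10.9-fold, 9.42 to 12.6). Both were high in RNAi too, TAT1 at 4328 against 271 in WT, and GAL4 at 910.2 against 55 in WT. IME4, a meiotic mRNA methyltransferase gene opposite RME2, had 37.0 in xrn1 RNAi and 1.32 in xrn1, where it rests on 4 reads (28.0-fold, 10.9 to 103). ZIP2, a meiotic chromosome synapsis gene opposite RME3, had 99.9 in xrn1 RNAi and 24.5 in xrn1, and 51.1 in RNAi and 63 in WT. GAL10 and SPS100, a spore wall gene, rose at low levels, 24.7 and 18.7 in xrn1 RNAi against 5.29 and 6.94 in xrn1. Both were higher in RNAi than in xrn1 RNAi, GAL10 at 69.2 against 31 in WT, and SPS100 at 28.3 against 28 in WT. PHO84, the phosphate transporter gene regulated by its antisense RNA, fell, with 354 in xrn1 RNAi and 1142 in xrn1 (3.22-fold lower, 3.09 to 3.37). Its log2 difference of -1.68 was near the nuclear median of -1.45, and was -0.079 with size factors. In cells with XRN1 it had 325 in RNAi and 287 in WT. TUB3, of which the same RNA covers 120 bases, had 14.8 in xrn1 RNAi and 96.1 in xrn1. Its log2 difference was -2.47, and -0.96 with size factors.

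Of 218 counted genes within 30 kb of a chromosome end 32.1% rose, against 14.7% of genes farther in. Only 218 of 372 listed genes there were counted. Subtelomeric families share sequence, so their reads may come from other copies or may not have been counted. COS2 and PHO11 had 0 reads in all 4 libraries. Of 6 counted COS genes, a subtelomeric family, 4 rose, though 3 were counted only through xrn1 RNAi. Coding length made little difference, with 12.6 to 17.3% higher across 5 classes of length. The value in xrn1 made more, with 10.9 to 23.6% higher and 38.2 to 74.3% lower across 5 classes of that value. Genes with an intron in the coding region had a median of -2.61, and -1.34 once cytosolic ribosomal protein genes were left out, against -1.41 for genes without an intron.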

How the data were processed

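Small RNA of 10 to 40 nucleotides was sequenced from 1 library per genotype, per the labels' protocols. The submitters' processing notes name cutadapt and Bowtie; versions, genome build, treatment of strand and of repeated sequence, and the scaling rule are not stated in the labels. The deposited table gives 1 value per gene. The WT column is a deposited count of reads per gene. The other 3 columns are a deposited signal equal to whole reads times 1 factor per library: dividing each column by its smallest value above 0 gave whole numbers for 100% of values (tolerance 1e-06), taken as reads. Values were not divided by gene length.

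Differences are of log2(value + 3.18), the 10th percentile of non-zero values over the 4 libraries, which understates changes of low genes. A gene was counted where 1 library reached that value, and called at a log2 difference of 1. Folds of single genes are plain ratios with exact Clopper-Pearson 95% intervals. A count of 0 allows up to 3 reads. Gene symbols, overlaps and sequences come from RefSeq assembly R64, in which 5789 of 5798 identifiers matched; DCR1 and AGO1 are not among the listed identifiers.

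Genes were named by rule: XRN1, the 15 highest and 15 lowest differences at a value of 31.8 or more, the 10 highest values and values per kilobase, 5 genes per library with 3 or fewer reads in the other, up to 4 per list and those against its median, and 8 overlapping pairs. The other genes named were chosen after their values were seen. The 42 gene lists and the comparison itself were chosen with earlier results of these data known; after the files were read, 1 symbol that resolved to another gene was dropped and 2 spellings were corrected. edgeR 4.0.16 (R 4.3.3) fitted an additive model of DCR1 AGO1 and XRN1 loss to the recovered reads, with 1 residual degree of freedom. It was run on simulated counts with the same DCR1 AGO1 effect in both backgrounds. Their dispersion (spread beyond counting error) was set below the 0.254 fitted to these data. The simulation thus does not show how the model performs on these libraries. Python 3.11.15, numpy 2.4.6, pandas 2.3.3 and scipy 1.17.1 were used.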

Additional observations from a re-analysis of the deposited data

Results flagged for a closer look

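For 7 named genes the difference made by DCR1 and AGO1 was past 2-fold in both backgrounds but in opposite directions: higher in xrn1 RNAi than in xrn1, and lower in RNAi than in WT. The difference between backgrounds was not tested, since each has 1 library per genotype. SUL1, a sulfate permease gene, had a log2 difference of 2.77 without XRN1, with 136 in xrn1 RNAi and 17.2 in xrn1, and had 48.9 in RNAi and 104 in WT. POT1, a peroxisomal thiolase gene (2.52), had 47.2 in xrn1 RNAi and 5.62 in xrn1, and 4.76 in RNAi and 48 in WT. FBP1, the gluconeogenic fructose bisphosphatase gene (2.35), had 19.8 in xrn1 RNAi and 1.32 in xrn1 from 4 reads, and 3.81 in RNAi and 75 in WT. STL1, a glycerol transporter gene (2.06), had 41.8 in xrn1 RNAi and 7.599 in xrn1, and 5.08 in RNAi and 35 in WT. YJR079W (2.53) had 53.2 in xrn1 RNAi and 6.61 in xrn1, and 6.67 in RNAi and 21 in WT. VAM10 (2.30) rested on 1 read in xrn1, and YML083C (1.72) on 3. In all of these the value in xrn1 was below that in WT. Over all 5385 genes counted in both backgrounds, 65 were higher without XRN1 and lower with it, and 37 the other way round.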

How the results depend on the processing

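No paired analysis was possible because the labels give no replicate numbers within a genotype, each of which has 1 library; the edgeR additive model sets DCR1 AGO1 against its absence within both XRN1 backgrounds. The 835 higher genes became 1770 with size factors and 411 at 4-fold. The 3161 lower genes became 1675 with size factors. The edgeR additive model estimates 1 DCR1 AGO1 effect over both XRN1 backgrounds, which it treats as replicates. Its counts are therefore not those of xrn1 RNAi against xrn1. Of 5584 genes tested it called 1136 higher and 1025 lower (quasi-likelihood test, Benjamini-Hochberg adjusted p of 0.05). The difference in mitochondrial read share, -33.1 percentage points, was -13.4 without nested features, by construction. The median of genes with a convergent neighbour within 100 bases, relative to other nuclear genes, was 0.960. It was 0.480 with a pseudocount 10 times larger, 1.12 with a filter at 10 times the pseudocount, 1.598 within 50 bases and 0.366 within 200. The median of genes overlapping by 100 bases or more, 1.29 above the others, kept its sign under the 9 settings run, from 0.300 with the stricter filter to 2.14 for overlaps of 1 base or more. Of the 8 genes opposite antisense RNAs, 4 rose with the larger pseudocount. With the stricter filter 4 rose too, but GAL10 and SPS100 were then too low to be counted. Relative list medians changed sign for 5′ to 3′ decay genes (0.026), DNA replication (-0.10) and phosphate response (-0.14) with the larger pseudocount, and for DNA replication without a filter (-0.16). With size factors the log2 differences of MCH4 (0.43), CIT2 (0.39) and IMO32 (0.20) changed sign. The cause was not tested. With 0.0762 to 1 in value per read, low genes rest on few reads.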
